A study of Chlamydomonas reinhardtii with 15 samples.

Results

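A set of 131 transcript models of the green alga Chlamydomonas reinhardtii had lower signal after exposure to tert-butylhydroperoxide, DBMIB or 2(E)-hexenal, while its signal after exposure to neutral red lay close to that of untreated cells. The members were chosen by their change against control, which is the mean log2 signal of 3 treated arrays minus the mean of 3 control arrays. A member had a change of -1.5 or lower in each of the 3 lowering treatments, a neutral red change between -0.7 and 0.7, and a mean control signal of 6 or more. The 131 members were 0.805% of the 16283 probes tested. Each probe stands for 1 transcript model, and 66 members could be tied to 66 different locus tags of the v5.5 annotation. The other 65 carry a transcript model number only. The array was built on an older set of models and tags were matched by number, so single tags may be wrong. The tables used here pair no locus tag with a gene symbol or product, so loci are named by tag and no function is given for any of them.

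All 5 groups were wild type 4A+ cells of the 137c background, grown in Tris-acetate phosphate medium, which feeds the cells acetate as well as light. Cultures of 20 ml received tBOOH at 100 µM, DBMIB at 2 µM, Hexenal at 0.3 mM, NR at 3 µM, or no chemical (control). Exposure lasted 2 h under 100 µmol photons m-2 s-1 of light at a temperature of 25 °C. Each group had 3 biological replicates from 1 strain, measured on 15 one-colour arrays. The chemicals were each given at 1 dose and the doses differ, so differences between treatments are differences between these exposures.

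tBOOH is an organic hydroperoxide that oxidises lipids and thiols. DBMIB is a quinone that keeps the cytochrome b6f complex from oxidising plastoquinol. The leaf aldehyde 2(E)-hexenal is unsaturated and reacts with nucleophiles such as thiols. Neutral red is a dye that forms singlet oxygen when it absorbs light. Green algae are known to answer reactive oxygen and reactive electrophiles with large changes in transcript levels, in which stress genes rise and many others fall. RNA of whole cultures was measured, so fewer cells with a transcript and less of it per cell cannot be told apart.

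Among the members 4 arrays stood apart, and they touch several results. DBMIB replicate 2 had the smallest share of all probes well above background, 72.7%, and 39 members were not well above background there, against 1 in DBMIB replicate 1 and 4 in DBMIB replicate 3. In tBOOH replicate 1, 16 members were not well above background, against 1 in tBOOH replicate 2 and 0 in tBOOH replicate 3. Over all probes the shares well above background were 80.9%, 86.5% and 88.0% on the tBOOH arrays. On the DBMIB arrays they were 88.7%, 72.7% and 84.9%. DBMIB replicate 2 and tBOOH replicate 1 thus had the lowest share of their groups over all probes too. NR replicate 1 lay higher than its partners, with a median member change of -0.11 from the control mean on the log2 scale, against -0.57 in NR replicate 2 and -0.50 in NR replicate 3. Control replicate 1 was the lowest control array for 78 of the 131 members. Over all probes it was the lowest of the 3 in 38.4%. No spot was saturated on any treated array. With 3 arrays per group, precision is limited by their number.

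Most transcripts lowered by tBOOH, DBMIB and Hexenal were also lower under NR. The 3 falls and the control minimum alone were met by 972 probes, of which 838 had an NR change below -0.7, 131 lay within 0.7 of control, and 3 had an NR change above 0.7. The median NR change of the 972 was -1.42, and those within 0.7 made up 13.5% of them. Among all 10008 probes with a control mean of 6 or more, 56.8% had an NR change within 0.7 of control. The plot of the NR change of these 972 probes has no gap at the lower bound, so the members form the upper edge of 1 continuous distribution.

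**Figure D1:**
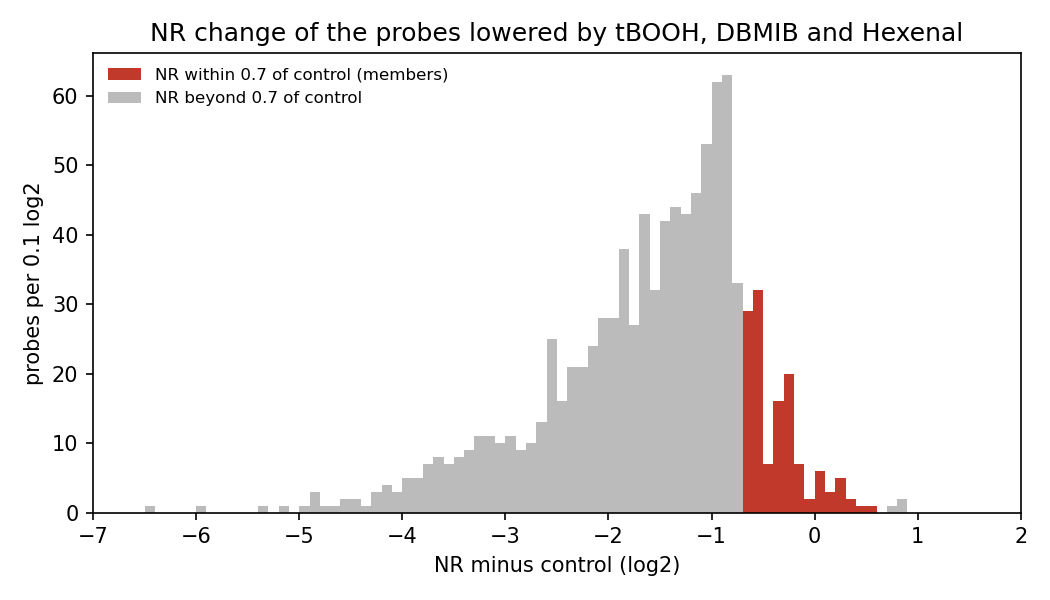
Number of probes (vertical axis, per 0.1 log2) by NR change against control (horizontal axis, log2) for the 972 probes with a change of -1.5 or lower in tBOOH, DBMIB and Hexenal and a control mean of 6 or more. The 131 members, in red, are the probes within 0.7 of control; 838 of the other probes lie to their left and 3 to their right.

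The changes against control chose the members and are given as a description, without a test. Over the 131 members the median change was -2.16 in tBOOH, -2.55 in DBMIB, -2.25 in Hexenal and -0.43 in NR. These are 4.46-, 5.84-, 4.74- and 1.35-fold lower signals in the same order of treatments. The medians over all 16283 probes were 0.10, 0.06, 0.13 and 0.01, which the quantile normalization of the deposited values keeps small. Members ranged from -4.58 to -1.51 in tBOOH, from -4.45 to -1.51 in DBMIB, and from -6.75 to -1.51 in Hexenal. All 3 arrays of each lowering treatment lay below all 3 control arrays for each of the 131 members, a pattern of 17.2% of all probes. Treatment by treatment it was found in 29.9% of all probes for tBOOH, 30.5% for DBMIB and 28.1% for Hexenal. In the limma model over the 5 groups all 131 were called lower in each treatment, where 28.2% of all probes were called lower in tBOOH, 30.4% in DBMIB and 25.7% in Hexenal. Nothing is read from these counts, because the same contrasts set the rule.

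The fall was of similar size on each array of a treatment when taken over all members. Relative to the control mean, the median member changed by -2.45, -1.97 and -2.16 on the tBOOH arrays. The medians were -2.33, -2.75 and -2.40 on the DBMIB arrays, and -2.21, -2.38 and -2.20 on the Hexenal arrays. Within single members the DBMIB arrays differed most, with a median SD of 0.42, against 0.25 in tBOOH, 0.20 in Hexenal, 0.29 in NR and 0.28 in control. Over all probes the median SDs were 0.26 in DBMIB, 0.20 in tBOOH, 0.19 in Hexenal, 0.20 in NR and 0.25 in control.

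**Figure D2:**
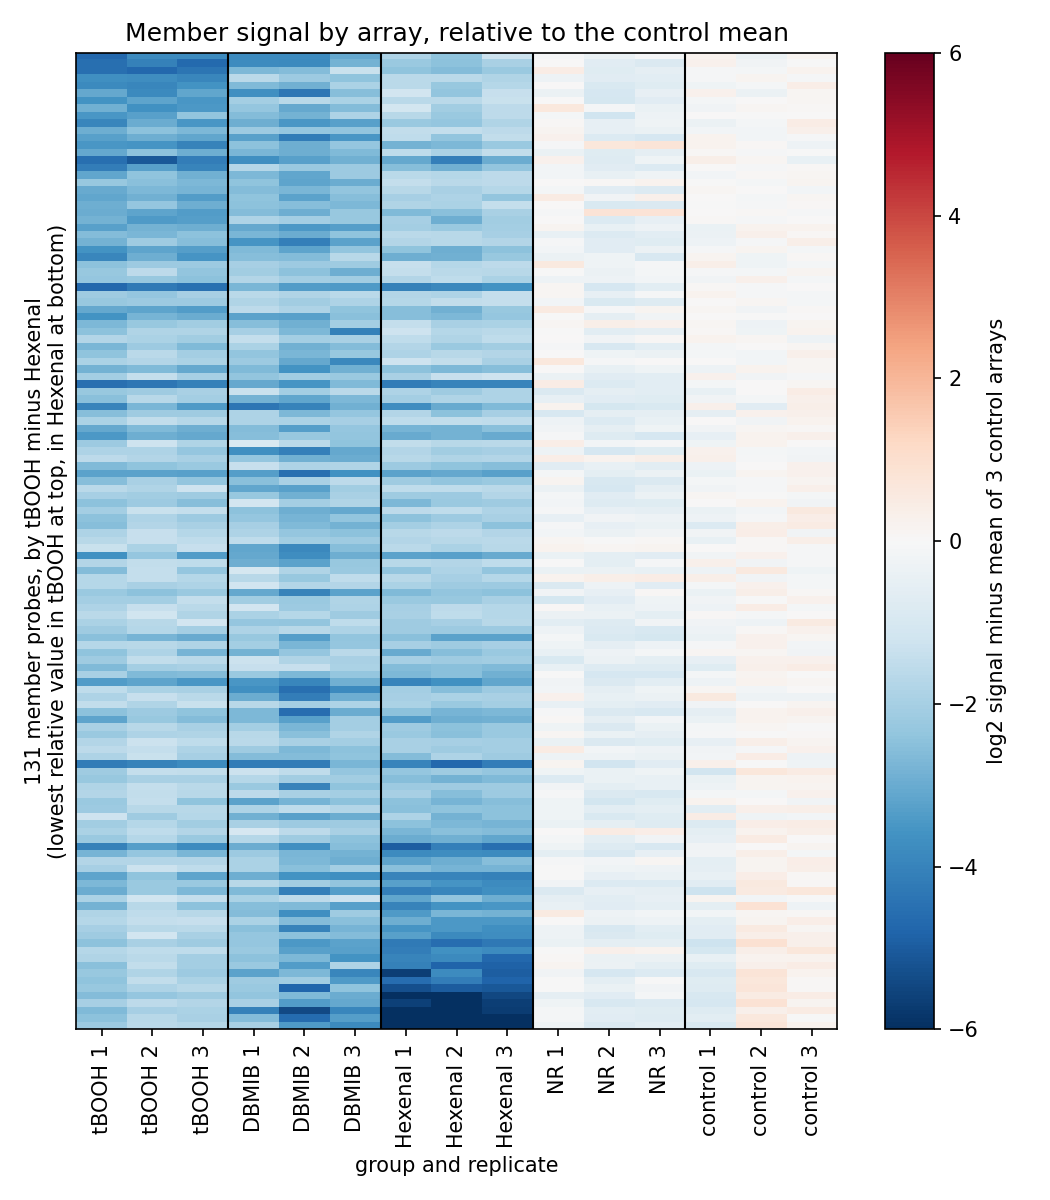
Deposited log2 signal of each of the 131 members (rows) on the 15 arrays (columns, by group and replicate), given as the difference from the mean of the 3 control arrays. Blue marks lower and red higher signal; the rows run from members lowest in tBOOH relative to Hexenal at the top to members lowest in Hexenal at the bottom, where control replicate 1 is paler or bluer than control replicates 2 and 3.

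The members differed in which treatment lowered them furthest. A change of -2 or lower was reached by 82 members in tBOOH, 102 in DBMIB and 86 in Hexenal, and by 49 in all 3. A change of -3 or lower was reached by 31, 35 and 30 members in the same order, and by 9 in all 3. A change of -4 or lower was measured for 7 members in tBOOH, 2 in DBMIB and 14 in Hexenal. Some of the Hexenal values come from probes not well above background on any Hexenal array. With these at their nominal bound, 12 members pass -4 there. A change of -5 or lower was measured for 0 members in tBOOH and DBMIB and for 6 in Hexenal, or 4 at the bounds. The 3 changes of a member lay within 1 log2 unit of each other for 63 members and were 2 or more apart for 17.

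The locus tag with the lowest mean change over the 3 lowering treatments was CHLRE_09g389615v5. Its log2 signal was 3.56, 4.04 and 3.82 in tBOOH, 5.52, 4.94 and 4.86 in DBMIB, 4.23, 4.40 and 4.67 in Hexenal and 8.40, 7.26 and 7.63 in NR, against 8.33, 8.22 and 8.28 in control. The signal was thus 22.1-fold lower in tBOOH, 9.0-fold in DBMIB and 14.3-fold in Hexenal, with 2 of 3 arrays well above background in each of them. One NR array lay above all control arrays and the other NR arrays lay below them.

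CHLRE_12g495300v5 was well above background on every treated array. It had a log2 signal of 5.83, 6.57 and 6.12 in tBOOH, 6.90, 6.20 and 7.34 in DBMIB, 4.96, 5.76 and 5.38 in Hexenal and 9.61, 9.12 and 8.92 in NR, against 9.67, 9.93 and 10.06 in control. These are falls of 13.1-fold in tBOOH, 8.41-fold in DBMIB and 22.9-fold in Hexenal, and its NR change of -0.67 lay near the bound of the rule.

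CHLRE_01g051000v5 was lowered almost equally by the 3 treatments. The arrays read 6.06, 7.35 and 6.33 in tBOOH, 6.63, 5.94 and 6.75 in DBMIB, 6.46, 6.41 and 6.68 in Hexenal and 9.28, 9.10 and 9.02 in NR, against 9.50, 9.93 and 9.63 in control. The falls were 8.59-fold in tBOOH, 9.47-fold in DBMIB and 8.96-fold in Hexenal. In the scanner signals the 95% intervals of the log2 differences ran from -0.57 to 0.79 for tBOOH minus DBMIB, from -0.43 to 0.93 for tBOOH minus Hexenal and from -0.54 to 0.83 for DBMIB minus Hexenal, so each interval excludes a 2-fold difference.

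The 6 loci with the highest control signal were CHLRE_10g420350v5, CHLRE_02g088900v5, CHLRE_03g171350v5, CHLRE_01g017300v5, CHLRE_06g259850v5 and CHLRE_10g420700v5. A probe's signal also depends on its sequence, so these are bright probes and not a ranking of transcript levels. CHLRE_10g420350v5 had a log2 signal of 12.83, 13.04 and 13.91 in tBOOH, 13.70, 13.45 and 14.45 in DBMIB, 14.63, 14.08 and 14.75 in Hexenal and 16.16, 15.10 and 15.98 in NR, against 16.32, 16.27 and 16.31 in control. The fall was 8.22-fold in tBOOH, 5.40-fold in DBMIB and 3.51-fold in Hexenal, and all 3 NR arrays also lay below the control arrays. CHLRE_06g259850v5 fell by a similar amount in each treatment, 4.36-fold in tBOOH, 3.16-fold in DBMIB and 3.86-fold in Hexenal. CHLRE_01g017300v5 was 5.38-fold lower in tBOOH, 3.19-fold in DBMIB and 5.27-fold in Hexenal.

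Within the window that the rule allowed, the NR changes were mostly negative. They were below 0 for 113 members and above 0 for 18, whereas 49.3% of all probes were below 0, and 34 members lay within 0.25 of control. In the limma model over all 5 groups, 21 members were called lower in NR (21.3% of all probes) and 0 were called higher (23.7% of all probes). All 3 NR arrays lay below all control arrays for 31 members (25.4% of all probes). The window itself limits these counts, which are therefore a description. Every member was well above background on all 3 NR arrays, as were 86.8% of all probes. The control minimum and the NR window of the rule favour such a signal.

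The highest NR change was that of CHLRE_05g244950v5. It gave log2 signals of 8.58, 8.36 and 8.18 in tBOOH, 8.95, 8.62 and 9.28 in DBMIB, 8.89, 9.03 and 9.60 in Hexenal and 11.49, 12.38 and 12.34 in NR, against 11.57, 11.59 and 11.46 in control. NR replicate 1 lay among the control arrays and the other NR arrays above them, for a mean NR change of 0.53. The signal was 9.0-fold lower in tBOOH, 6.03-fold in DBMIB and 5.16-fold in Hexenal. CHLRE_05g244950v5 lies outside the naming rule and was chosen after its values were seen.

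CHLRE_06g278239v5 was the only member with every NR array above every control array, a pattern of 28.9% of all probes. It had a log2 signal of 10.14, 9.58 and 10.12 in tBOOH, 8.39, 7.65 and 8.94 in DBMIB, 9.88, 9.59 and 9.83 in Hexenal and 11.70, 11.59 and 11.65 in NR, against 11.49, 11.56 and 11.42 in control. The NR change was 0.16, a small difference on tight arrays. Its falls were 2.91-fold in tBOOH, 8.97-fold in DBMIB and 3.31-fold in Hexenal.

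The rule used the same cut for tBOOH, DBMIB and Hexenal but did not order them, so the 3 differences between these treatments were tested. The test was limma's moderated test on log2 scanner signals scaled to each array's 75th percentile, with p-values adjusted by the Benjamini-Hochberg method over all 16283 probes and a call at an adjusted p under 0.05. Between tBOOH and DBMIB, 31 members were called higher in tBOOH (25.3% of all probes) and 19 lower (24.8% of all probes). Between tBOOH and Hexenal, 37 were called higher in tBOOH (27.2% of all probes) and 24 lower (19.1% of all probes). Between DBMIB and Hexenal, 37 were called higher in DBMIB (25.0% of all probes) and 27 lower (17.2% of all probes). As shares of the 131 members these were 23.7% and 14.5%, 28.2% and 18.3%, and 28.2% and 20.6%. The lowest of these shares, 14.5% called lower in tBOOH than in DBMIB, stands for 19 members, and 27 were called after normexp. At 2-fold or more, 20 members were called higher (15.9% of all probes) and 12 lower (15.4%) in tBOOH than in DBMIB. For tBOOH against Hexenal these were 26 higher (16.5%) and 14 lower (12.3%), and for DBMIB against Hexenal 24 higher (13.9%) and 13 lower (9.53%).

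The balance of directions among these calls differed after normexp for both pairs with DBMIB. For both pairs with Hexenal it differed with the deposited values. The normexp fit also used another spot signal and an offset, and the steps behind the deposited values are not given. Background correction and scaling were not varied alone, so their separate effects on the balance were not tested. Calls higher in tBOOH than in DBMIB made up 62.0% of the members called in that pair, 64.2% with the deposited values and 42.6% after normexp background correction of the median spot signals. Calls higher in tBOOH than in Hexenal made up 60.7%, against 50.8% with the deposited quantile-normalized values and 59.6% after normexp. Calls higher in DBMIB than in Hexenal made up 57.8%, against 47.5% with the deposited values and 75% after normexp. The direction of the set as a whole between any pair of treatments is therefore not given. The counts also rested on single arrays: calls higher in tBOOH than in DBMIB numbered 20 without tBOOH replicate 2, and calls lower in DBMIB than in Hexenal numbered 17 without DBMIB replicate 2 and 17 without Hexenal replicate 3.

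At least 1 of the 3 differences was called for 93 members and all 3 for 11. Calls in all 3 were not counted over all probes, so nothing is read from the 11. No difference was called for 38 members, or 29.0%, a pattern of 31.5% of all probes. Where a difference was not called, its 95% interval lay within 1 log2 unit of 0 for 57 of 81 members between tBOOH and DBMIB, 43 of 70 between tBOOH and Hexenal, and 40 of 67 between DBMIB and Hexenal. For the remaining members a difference of 2-fold is inside the interval.

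Members called lower in 1 treatment than in both of the others fell into 3 groups. There were 28 lowest in Hexenal, 21.4% of the members against 10.5% of all probes. Among the 88 members that still met the rule without control replicate 1 they were 10, or 11.4%. Without that array 30 other probes also met the rule. These were not counted by lowest treatment, so the share in a set chosen without it is not known. There were 12 lowest in DBMIB, 9.16% against 9.18% of all probes. There were 8 lowest in tBOOH, 6.11% against 12.7% of all probes. With the replicate number as a block in the model there were 13, and the share of all probes was not counted in that model. The other 83 members had no single lowest treatment.

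**Figure D3:**
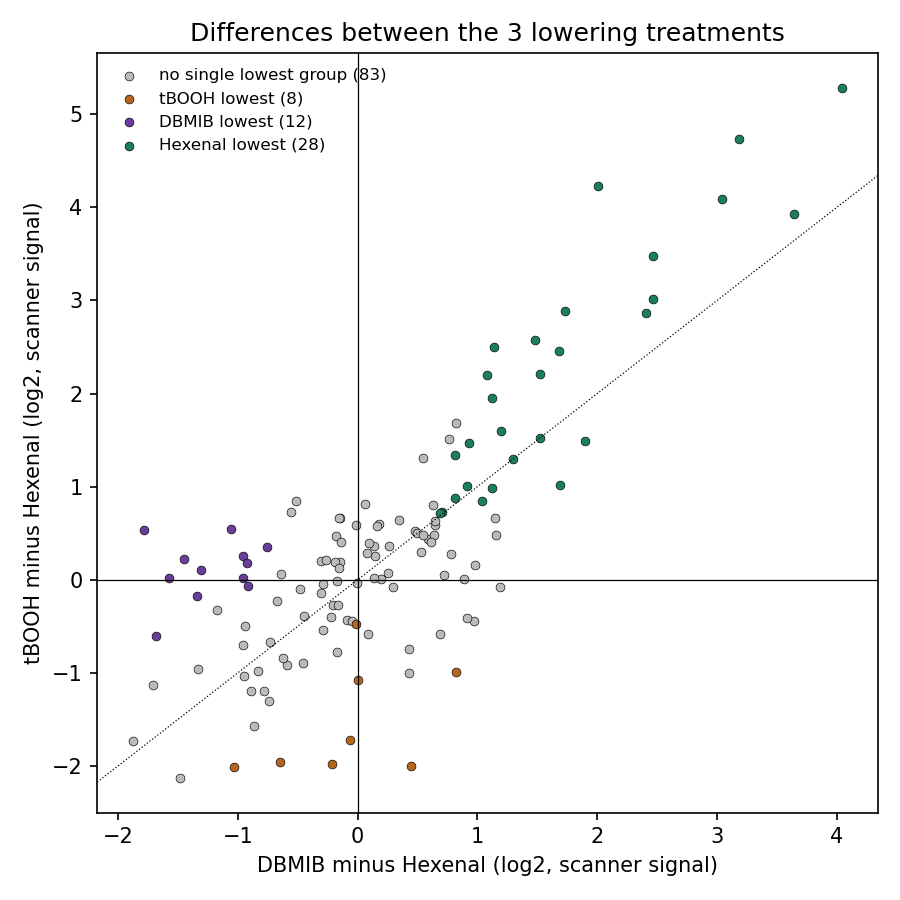
Differences between the lowering treatments for the 131 members: DBMIB minus Hexenal (horizontal axis) against tBOOH minus Hexenal (vertical axis), both in log2 scanner signal over 3 arrays per group. Colours mark the 28 members called lowest in Hexenal, the 12 in DBMIB and the 8 in tBOOH; the dotted line marks equal signal in tBOOH and DBMIB, and the Hexenal group reaches 5.29 on the vertical axis.

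The 28 members lowest in Hexenal had a median change of -1.94 in tBOOH, -2.62 in DBMIB, -3.81 in Hexenal and -0.51 in NR. Their median log2 signal was 5.82, 6.54 and 6.35 on the tBOOH arrays, 5.93, 5.81 and 6.10 on the DBMIB arrays, 4.24, 4.23 and 4.63 on the Hexenal arrays and 8.30, 7.85 and 7.74 on the NR arrays, against 7.70, 8.997 and 8.56 on the control arrays. The 3 Hexenal arrays were below all the others, and control replicate 1 lay below its partners and below the NR arrays. Control replicate 1 was the lowest control array for 27 of these 28 members, by a median of 1.02 below the mean of control replicates 2 and 3. The same difference was -0.10 for the members lowest in tBOOH, 0.01 for those lowest in DBMIB and -0.01 over all probes. Without control replicate 1 the median changes of the 28 were -2.30 in tBOOH, -3.00 in DBMIB, -4.10 in Hexenal and -0.80 in NR, and 10 of the 28 still met the rule. Their place in the set thus depends on that array, while the differences between treatments use no control array.

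The deepest falls of the set belonged to this Hexenal group and to models without a locus tag, which are named here after their values were seen. Transcript model 344862 had a log2 signal of 8.60, 9.16 and 9.04 in tBOOH, 8.79, 7.36 and 6.93 in DBMIB, 4.26, 3.74 and 4.02 in Hexenal and 10.49, 9.90 and 10.11 in NR, against 9.83, 11.48 and 10.96 in control. The signal was 3.54-fold lower in tBOOH and 8.37-fold in DBMIB, but 108-fold lower in Hexenal, where 2 of 3 arrays were well above background. In the scanner signals tBOOH exceeded Hexenal by 5.29 ± 0.40 (log2 difference ± SE, n = 3 per group; limma adjusted p = 3.36e-07) and DBMIB exceeded Hexenal by 4.04 ± 0.40 (limma adjusted p = 7.06e-06).

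Transcript model 205763 had a log2 signal of 7.65, 7.91 and 8.13 in tBOOH, 7.87, 7.61 and 7.29 in DBMIB, 4.23, 3.84 and 4.78 in Hexenal and 9.72, 9.59 and 10.14 in NR, against 9.30, 10.73 and 10.71 in control. tBOOH and DBMIB lowered it to a like extent, 5.10-fold and 6.31-fold, and Hexenal 62.4-fold. The tBOOH signal exceeded that of Hexenal by 3.93 ± 0.29 on the log2 scale (limma adjusted p = 2.75e-07). The difference of tBOOH from DBMIB was 0.29 ± 0.29 and was not called (limma adjusted p = 0.424). Neither this model nor the one before it met the NR bound of the rule without control replicate 1.

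In Hexenal, 15 members lacked signal well above background on all 3 arrays, a pattern not counted over all probes. Of these, 12 were called lowest in Hexenal. The falls of the 15 are nominal lower bounds, set per array from the dimmest probe that was well above background. They range from at least 6.28-fold to at least 43.7-fold below control. A probe can be undetected above that dimmest value, so a true fall can be smaller than its bound. No member was undetected on all arrays of tBOOH, DBMIB or NR. Of the 15, 11 were well above background on all 3 tBOOH arrays and 1 on all 3 DBMIB arrays. The highest bounds were those of transcript model 335145, at least 43.7-fold lower in Hexenal, and transcript model 421257, at least 41.6-fold lower; bounds do not rank the falls themselves. For 3 of the 15 the bound equals the fold of the measured means. Control replicate 1 was the lowest control array for 14 of the 15.

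CHLRE_01g015650v5 was called in all 3 differences and was well above background on every treated array. It had a log2 signal of 9.81, 10.00 and 9.97 in tBOOH, 9.29, 8.26 and 8.26 in DBMIB, 7.37, 7.86 and 7.73 in Hexenal and 11.50, 11.84 and 11.73 in NR, against 10.46, 11.87 and 12.21 in control. No array of 1 lowering treatment overlapped an array of another. The signal in tBOOH exceeded that in DBMIB by 1.37 ± 0.26 on the log2 scale (limma adjusted p = 0.000759) and that in Hexenal by 2.50 ± 0.26 (limma adjusted p = 5.59e-06). DBMIB exceeded Hexenal by 1.14 ± 0.26 (limma adjusted p = 0.00389). Control replicate 1 lay below its partners, and above all arrays of the lowering treatments.

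CHLRE_10g436650v5 was not well above background on any Hexenal array. It gave log2 signals of 4.41, 5.48 and 4.88 in tBOOH, 4.70, 3.57 and 5.10 in DBMIB, 2.87, 2.16 and 2.09 in Hexenal and 7.10, 6.57 and 6.38 in NR, against 6.23, 7.23 and 7.37 in control. The Hexenal signal was nominally at least 14.5-fold below control. It was nominally at least 4.63-fold below tBOOH and at least 3.38-fold below DBMIB. The tests did not use these bounds but the measured values, which include the undetected Hexenal values. In them tBOOH exceeded Hexenal by 2.86 on the log2 scale (limma adjusted p = 0.000181). DBMIB exceeded Hexenal by 2.41 (limma adjusted p = 0.000976). DBMIB replicate 2 was the lowest DBMIB array, and DBMIB was still called above Hexenal without it (limma adjusted p = 2.99e-05). After normexp, which draws dim values together, tBOOH and DBMIB were also called above Hexenal (limma adjusted p = 0.0187 and 0.00311).

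CHLRE_02g086750v5 showed the same undetected signal in Hexenal, with log2 values of 5.55, 6.07 and 5.86 in tBOOH, 5.68, 4.57 and 4.79 in DBMIB, 3.79, 3.47 and 3.74 in Hexenal and 7.63, 7.44 and 7.42 in NR, against 6.79, 8.93 and 8.33 in control. The Hexenal signal was nominally at least 20.4-fold below control and at least 5.50-fold below tBOOH (limma adjusted p = 3.65e-05), and was still called below tBOOH after normexp (limma adjusted p = 0.000487). Both bounds equal the folds of the measured means, because the probe's own values lay above the dimmest detected probes. Its control arrays spread widely, with an SD of 1.10, and it missed the NR bound of the rule without the lowest of them. CHLRE_06g273413v5 and CHLRE_13g563850v5 were likewise not well above background in Hexenal, at least 10.5-fold and at least 16.0-fold below control. CHLRE_02g088900v5, at the bright end of the set, was called lowest in Hexenal by a small margin, 0.72 ± 0.19 below tBOOH and 0.71 ± 0.19 below DBMIB on the log2 scale (limma adjusted p = 0.00652 and 0.00925).

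The 8 members lowest in tBOOH had a median change of -3.78 in tBOOH, -2.14 in DBMIB, -2.04 in Hexenal and -0.52 in NR. Their median log2 signal was 5.26, 5.50 and 5.09 on the tBOOH arrays, 6.64, 6.33 and 6.76 on the DBMIB arrays, 7.09, 7.08 and 7.09 on the Hexenal arrays and 9.01, 8.43 and 8.54 on the NR arrays, against 8.88, 9.14 and 9.01 on the control arrays. All 8 still met the rule without control replicate 1. The members with a locus tag were CHLRE_03g171350v5, CHLRE_03g209841v5, CHLRE_07g334851v5 and CHLRE_07g335300v5.

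CHLRE_07g335300v5 had a log2 signal of 3.96, 4.39 and 4.07 in tBOOH, 5.50, 5.89 and 5.64 in DBMIB, 5.92, 5.91 and 6.20 in Hexenal and 7.57, 6.50 and 6.85 in NR, against 7.42, 7.56 and 7.64 in control. All tBOOH arrays lay below all arrays of the other groups, and 2 of the 3 were well above background. tBOOH was below DBMIB by -1.66 ± 0.23 (log2 difference ± SE, tBOOH minus DBMIB; limma adjusted p = 5.08e-05). The tBOOH minus Hexenal difference was -1.72 ± 0.23 (limma adjusted p = 4.06e-05). DBMIB minus Hexenal was -0.06 ± 0.23 and was not called (limma adjusted p = 0.843). After normexp the differences of this dim probe were -0.69 for tBOOH minus DBMIB and -0.57 for tBOOH minus Hexenal, and both were still called.

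CHLRE_03g209841v5 had a log2 signal of 8.57, 8.46 and 8.79 in tBOOH, 9.74, 9.48 and 10.47 in DBMIB, 10.75, 10.12 and 10.69 in Hexenal and 12.40, 11.45 and 11.67 in NR, against 12.12, 12.25 and 12.77 in control. The signal was 13.7-fold lower than control in tBOOH, 5.59-fold in DBMIB and 3.63-fold in Hexenal. The tBOOH minus Hexenal difference was -1.96 ± 0.30 (limma adjusted p = 0.000127), and tBOOH minus DBMIB was -1.31 ± 0.30 (limma adjusted p = 0.00259).

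CHLRE_03g171350v5 combined a deep fall in tBOOH with a positive NR change. On the log2 scale its arrays read 10.46, 10.44 and 9.95 in tBOOH, 11.52, 11.03 and 11.65 in DBMIB, 11.12, 11.28 and 11.72 in Hexenal and 13.90, 14.64 and 14.73 in NR, against 14.19, 14.03 and 13.68 in control. The signal was 12.8-fold lower in tBOOH, 5.92-fold in DBMIB and 6.03-fold in Hexenal. The NR change was 0.46, with NR replicate 1 among the control arrays. CHLRE_07g334851v5 was 13.7-fold lower than control in tBOOH, and its tBOOH minus DBMIB difference was -1.82 ± 0.28 (limma adjusted p = 0.000132), or -0.80 after normexp.

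The 12 members lowest in DBMIB had a median change of -1.78 in tBOOH, -3.10 in DBMIB, -1.74 in Hexenal and -0.27 in NR. Their median log2 signal was 7.82, 8.41 and 8.12 on the tBOOH arrays, 7.15, 6.51 and 7.02 on the DBMIB arrays, 8.39, 8.29 and 8.11 on the Hexenal arrays and 10.09, 9.55 and 9.76 on the NR arrays, against 9.92, 10.22 and 10.22 on the control arrays. The tBOOH and Hexenal arrays lay at a like level and the DBMIB arrays below both. DBMIB replicate 2 was the lowest of its group, and 9 of the 12 were still called lowest in DBMIB without it.

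CHLRE_01g029300v5 had the largest fall among the loci lowest in DBMIB. Its log2 signal was 11.14, 10.75 and 10.68 in tBOOH, 8.97, 8.12 and 8.81 in DBMIB, 10.60, 10.08 and 10.46 in Hexenal and 12.48, 12.10 and 12.40 in NR, against 12.77, 12.50 and 12.66 in control. The signal was 16.1-fold lower in DBMIB, 3.45-fold in tBOOH and 4.80-fold in Hexenal. tBOOH exceeded DBMIB by 2.31 ± 0.25 on the log2 scale (limma adjusted p = 5.80e-06), and DBMIB minus Hexenal was -1.78 ± 0.25 (limma adjusted p = 9.98e-05).

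CHLRE_10g429880v5 had a log2 signal of 8.81, 8.83 and 8.34 in tBOOH, 6.99, 6.59 and 7.63 in DBMIB, 8.92, 8.59 and 8.70 in Hexenal and 10.37, 9.67 and 9.96 in NR, against 10.96, 10.56 and 10.53 in control. tBOOH and Hexenal gave nearly the same signal, with a difference of 0.01 ± 0.27. DBMIB minus Hexenal was -1.57 ± 0.27 (limma adjusted p = 0.00052), and all DBMIB arrays lay below all tBOOH and Hexenal arrays. CHLRE_06g278239v5, whose signals are given above, had a DBMIB minus Hexenal difference of -1.45 ± 0.28 (limma adjusted p = 0.00124). CHLRE_10g420700v5 was 7.09-fold below control in DBMIB, 2.95-fold in tBOOH and 2.93-fold in Hexenal. CHLRE_12g515550v5 was called lower in DBMIB than in tBOOH, but 1 of its 3 DBMIB arrays was well above background and the call was lost after normexp (tBOOH minus DBMIB 0.17, limma adjusted p = 0.206).

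**Figure D4:**
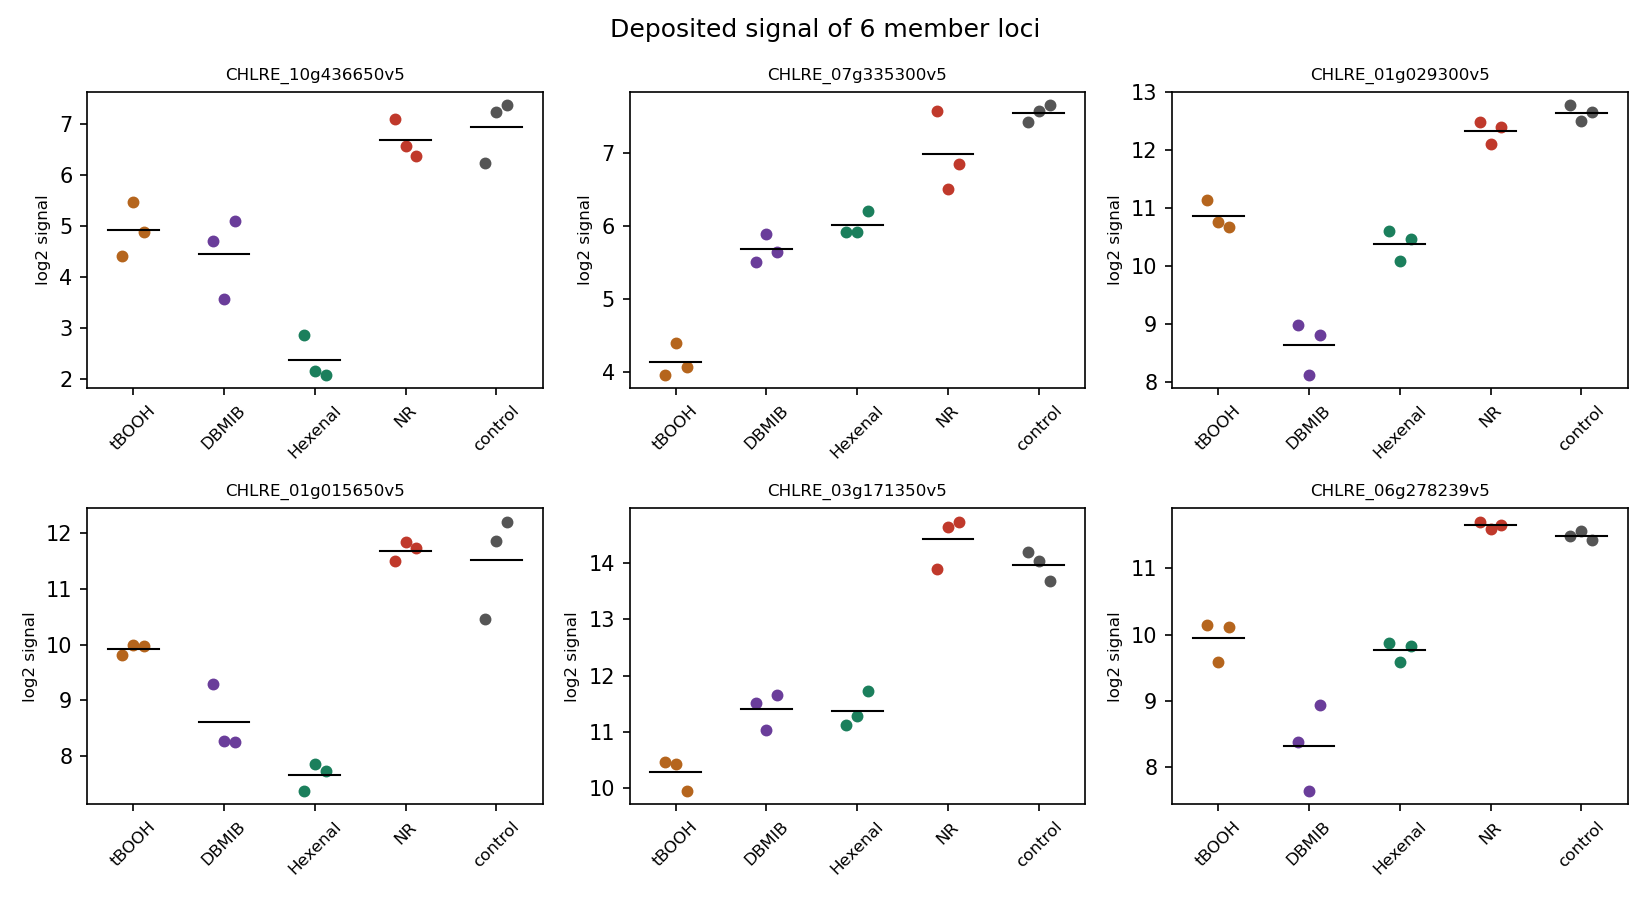
Deposited log2 signal (vertical axes) of 6 member loci by treatment, with a point per array and a bar at the mean of 3 arrays; the vertical axes differ and do not start at 0. CHLRE_10g436650v5 and CHLRE_01g015650v5 (left) are lowest in Hexenal, CHLRE_07g335300v5 and CHLRE_03g171350v5 (middle) in tBOOH, and CHLRE_01g029300v5 and CHLRE_06g278239v5 (right) in DBMIB.

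CHLRE_12g557050v5 had its smallest fall in Hexenal, unlike the 28 members above. It had a log2 signal of 8.21, 7.44 and 8.15 in tBOOH, 7.60, 6.93 and 8.73 in DBMIB, 10.11, 8.91 and 9.88 in Hexenal and 10.92, 10.27 and 10.76 in NR, against 11.51, 10.90 and 11.38 in control. Replicate 2 was the lowest array in every group. The signal was 10.1-fold lower than control in tBOOH and 11.4-fold in DBMIB, but 3.09-fold in Hexenal. The tBOOH minus Hexenal difference was -1.73 ± 0.43 (limma adjusted p = 0.00536), and DBMIB minus Hexenal was -1.88 ± 0.43 (limma adjusted p = 0.00396). These SEs include the shift shared by same-numbered replicates. With the replicate number as a block, both were called too (limma adjusted p = 0.0003 and 0.000253).

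The probes just inside and just outside the cut on the fall had nearly the same values. CHLRE_04g227800v5, just inside, had changes of -1.51 in tBOOH, -1.58 in DBMIB, -2.80 in Hexenal and -0.57 in NR. CHLRE_12g546000v5, also inside, had changes of -2.69, -2.29, -1.51 and -0.24 in the same order. CHLRE_07g326350v5, with a tBOOH change of -1.4993, and CHLRE_03g145747v5, with a Hexenal change of -1.4993, were outside. At the NR bound, CHLRE_07g344350v5 was inside at -0.69 and CHLRE_12g520600v5 outside at -0.7023.

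Few tagged members were neighbours. A single pair lay close together, CHLRE_03g196900v5 and CHLRE_03g197000v5, with 1 annotated locus between them. The first was called lowest in DBMIB and the second lowest in Hexenal, so the neighbours did not share an order of treatments. At loci next to a member, 54 probes that are not members were measured. Of these, 7 (13.0%) had all 3 changes at -1.5 or lower, against 6.93% of all probes, a difference that was not tested. All 54 carry a locus tag, as do only 6942 of all 16283 probes, so the shares are of unlike sets. The median change of the 54 was -0.69 in tBOOH, -0.98 in DBMIB, -0.31 in Hexenal and -0.18 in NR. The array design classed 128 members as specific and 3 as cross-hybridising, 2.29% against 6.39% of all probes, and transcript model 421257 in the Hexenal group is of the second class. None of the 66 tagged loci was measured by another probe; for the 65 members without a tag this could not be looked up.

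Leaving out each of the 15 arrays in turn left 42 members that met the rule every time, 20 of them with a locus tag. Their median changes were -2.36 in tBOOH, -2.66 in DBMIB, -2.38 in Hexenal and -0.26 in NR. Of these 42, 6 were among the 28 lowest in Hexenal, 3 among the 8 lowest in tBOOH, 3 among the 12 lowest in DBMIB, and 30 had no single lowest treatment. Most losses came without NR replicate 1, where 44 of the 131 no longer met the rule and 7 other probes did, and without control replicate 1, where 43 were lost and 30 gained. Without NR replicate 2, 5 were lost and 55 gained, and without control replicate 2, 21 were lost and 40 gained. CHLRE_10g442650v5, a member in all 15 settings that lies outside the naming rule and was chosen after its values were seen, had an NR change of -0.02. Its log2 signal was 8.68, 8.70 and 8.71 in tBOOH, 8.57, 7.76 and 7.53 in DBMIB, 7.30, 7.52 and 7.90 in Hexenal and 10.40, 10.30 and 10.59 in NR, against 9.86, 10.64 and 10.86 in control.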

How the data were processed

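Log2 values of all 15 arrays were deposited by the authors and, as the values show, quantile-normalized; the steps behind them are not given in the sources used here. They set the rule, the changes and the signals by array. For the 12 treated arrays the authors deposited scanner tables; the processed signal in them is an intensity per spot, background-subtracted per the file headers, and flag columns mark spots with other codes. Control arrays enter through the log2 table only. Spots flagged as outliers (1.47% to 1.78% per array) were left out unless all spots of a probe were flagged, and spots were averaged. Log2 of that signal, scaled to the 75th percentile of its array, was fitted with limma 3.58.1 (R 4.3.3) over the 4 treated groups, and checked on simulated data. The 60 control features were left out. A probe was well above background where at least 0.5 of its spots were. Bounds (at least N-fold) use, per array, the higher of the probe's value and the lowest value well above background. They are nominal, because a probe's own detection limit can be higher.

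Same-numbered replicates deviated together in some pairs of groups only. Correlations of deviations were 0.24, 0.30 and 0.20 for tBOOH with Hexenal and 0.22, 0.29 and 0.26 for DBMIB with Hexenal. They were 0.15, 0.097 and 0.18 for tBOOH with DBMIB. With NR they were 0.04, 0.13 and 0.25 for tBOOH, -0.004, 0.098 and -0.065 for DBMIB, and 0.13, 0.23 and 0.11 for Hexenal. With control, in the deposited values, they ran from -0.11 (Hexenal replicate 1) to 0.25 (tBOOH replicate 3). Biological replicates are as the labels state, which say that cultures were split.

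Transcript numbers below 200000 were matched to older locus tags in the RefSeq table of assembly Chlamydomonas_reinhardtii_v5.5: 6854 of 7899 (86.8%) matched, against 15.7% of shifted numbers; higher numbers matched no better than shifted ones and stay unnamed. The table holds no symbols or products, so planned lists of pathway genes and promoters could not be counted. Named are the 6 tagged members with the highest control mean, the 6 with the lowest mean change, the 3 most higher and 3 most lower per difference among called members whose arrays do not overlap, those at the cuts and neighbouring loci; other names are said to be chosen after their values were seen. Members and lists were chosen with earlier results of these data known.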

Additional observations from a re-analysis of the deposited data

How the results depend on the processing

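Number of members. A cut on the falls looser by 0.25 gave 226 members and one stricter by 0.25 gave 74; an NR window of 0.5 gave 69 and one of 1 gave 292. Leaving out 1 array gave 94 (without NR replicate 1) to 181 (without NR replicate 2) members. Centring on the 6 spike-in features gave 185 and shared 91 of the 131; it shifted all probes by -0.21 in tBOOH, -0.63 in DBMIB, -0.32 in Hexenal and -0.14 in NR, so the median change of members became -3.18 in DBMIB and -2.57 in Hexenal, with -2.36 in tBOOH and -0.57 in NR. Without 1 array the medians ranged from -2.35 to -2.05 in tBOOH, from -2.65 to -2.38 in DBMIB, from -2.32 to -2.19 in Hexenal and from -0.51 to -0.32 in NR. Differences between treatments. After normexp (chosen after seeing the data, on median spot and background signals because the planned mean signal was not used here), 20 members were called higher and 27 lower in tBOOH than in DBMIB, and 15 lower in DBMIB than in Hexenal; 5 calls between tBOOH and DBMIB turned direction and 12 were lost. The offset of 50 in normexp compresses dim signals by construction; the log2 difference moved by over 1.5 times for 21 called members between tBOOH and DBMIB, 32 between tBOOH and Hexenal and 28 between DBMIB and Hexenal. Without 1 array, calls ranged from 20 to 42 (tBOOH higher than DBMIB), 13 to 23 (lower), 31 to 36 (tBOOH higher than Hexenal), 18 to 24 (lower), 29 to 43 (DBMIB higher than Hexenal) and 17 to 28 (lower). With the replicate block, calls were 31 and 21 between tBOOH and DBMIB, 40 and 28 between tBOOH and Hexenal, and 38 and 31 between DBMIB and Hexenal. Members lowest in tBOOH numbered 13 with the block, against 8, and all 131 members were called lower than control with and without it; it moved no other count by over 1.5 times. The fits with the deposited values, all spots or only detected probes kept the 6 counts of these differences within 1.5 times. Slide as a block was not run, since no slide was given for the arrays. Dim signal limits the Hexenal and DBMIB values: 85 members were well above background on all 12 treated arrays, a pattern not counted over all probes. On all 3 arrays of a group, 109 of the 131 members were well above background in Hexenal, 92 in DBMIB and 115 in tBOOH. The shares of all probes were 79.6%, 72.6% and 80.5% in the same order, so no dimness particular to the set is read from these counts.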
